A study of Mus musculus with 9 samples.

Results

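The genes described here are 41 genes of DNA replication and S phase, out of 47729 genes in the count table. They were chosen by symbol, with no measured value in the rule, but with earlier results of these data known. All 41 had counts and passed the filter on low counts (at least 1 CPM, a count scaled to library size, in at least 3 of the 9 libraries). They cover the licensing and firing of origins, the MCM2-7 helicase, the replicative polymerases with their clamp and clamp loader, Okazaki fragment joining, deoxynucleotide supply, chromatin copying and the regulators of the G1/S step. RNA was sequenced from C2C12 cells, a mouse myoblast line that withdraws from the cell cycle and fuses into myotubes when serum is lowered. The labels give 3 genotypes, all treated with CRISPR-Cas9 guides: WT, which received a non-target guide, Per1KO and Per2KO, in which the circadian repressor genes Per1 and Per2 were targeted. Each genotype was sampled on day 0, in growth medium with fetal bovine serum, and on days 3 and 5 of differentiation in horse serum, with 1 library per genotype and day. The labels do not say whether each knockout is a clone or a pool, and they name both this cell line and whole muscle as the source. A fitted p-value here rests on 4 residual degrees of freedom, with the 3 genotypes standing in as replicates of a day and the 3 days as replicates of a genotype.

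DNA is copied once per cell cycle. In G1 the origin recognition complex, with CDC6 and CDT1, loads the MCM2-7 helicase onto origins. At the start of S phase kinases, CDC45, the GINS complex and MCM10 turn the helicase on, and polymerases alpha, delta and epsilon copy the strands behind it. Most of these genes are targets of E2F factors, which pocket proteins of the RB family hold in check in cells that leave the cycle, and leaving the cycle is part of the step from myoblast to myotube.

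Of the 41 genes, 33 had a promoter in the RefSeq table (GRCm38.p6), as 38 windows of 300 bases from 250 before to 50 after the gene start. The E2F letters TTTCCCGC, TTTCGCGC, TTTGCCGC or TTTGGCGC, on either strand, stood in at least 1 window of 14 of the 33 genes (42.4%), against 704 of 27025 genes in the whole table (2.6%). Among the windows themselves the share was 36.8% for the replication genes and 2.26% for all 32851 windows. The E-box letters CACGTG, which are bound by the CLOCK-BMAL1 pair that PER proteins repress, stood in windows of 5 of the 33 genes (15.2%) and of 8.09% of all genes. A match describes letters in a window and not a bound site. The following stretches are shown because Mcm5, Uhrf1 and Cdc6 fell the most by day 5 among the genes described in full that hold an E2F match upstream of the start, and Gins3 was the only one of the 41 that did not fall. Gins3 was added after its values were seen. Capitals mark the E2F letters or their complement, bases are written 5′ to 3′ on the gene's strand, and bases that GENCODE M21 places in exons were left out except around the Gins3 match.
Mcm5, chr8:75109259-75109508, plus strand: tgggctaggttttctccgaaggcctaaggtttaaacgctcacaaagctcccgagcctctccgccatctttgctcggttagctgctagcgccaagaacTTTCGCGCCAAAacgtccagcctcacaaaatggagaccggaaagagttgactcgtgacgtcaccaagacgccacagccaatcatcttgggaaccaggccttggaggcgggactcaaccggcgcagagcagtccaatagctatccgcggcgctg
Uhrf1, chr17:56304063-56304312, plus strand: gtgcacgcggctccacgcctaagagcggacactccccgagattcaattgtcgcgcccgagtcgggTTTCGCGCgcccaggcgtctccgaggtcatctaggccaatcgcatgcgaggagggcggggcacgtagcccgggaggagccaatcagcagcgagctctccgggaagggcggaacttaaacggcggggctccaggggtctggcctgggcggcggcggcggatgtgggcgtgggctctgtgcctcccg
Cdc6, chr11:98907982-98908150, plus strand: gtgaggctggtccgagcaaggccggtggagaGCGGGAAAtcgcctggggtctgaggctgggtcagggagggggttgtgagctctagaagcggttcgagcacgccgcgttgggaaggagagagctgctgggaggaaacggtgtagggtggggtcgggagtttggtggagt
Gins3, chr8:95633507-95633536, plus strand: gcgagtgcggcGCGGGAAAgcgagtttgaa
In Mcm5 a TTTCGCGC on the gene's strand and a TTTGGCGC on the other strand overlapped, between 153 and 142 bases before the start. The match in Uhrf1 lay 185 to 178 bases and that in Cdc6 138 to 131 bases before the start. Gins3 also held a match, 41 to 34 bases before its RefSeq start.

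Before the results, some facts of the series bear on them. WT libraries held 5020385 to 6773320 counts and knockout libraries 41997763 to 48051824, a mean 7.82 times as many, and only the WT titles carry a lane suffix, so that genotype and whatever the suffix marks cannot be told apart in any comparison of a knockout with WT. With the knockout libraries thinned to the mean WT total, 40 of the 41 genes were called lower on day 5 than on day 0, and 4 (Per1KO) and 3 (Per2KO) were called higher than in WT over the days; the same counts at full depth were 40, 4 and 2. The mRNAs of the targeted genes did not separate the knockouts: Per1 was at 35.6, 33.8 and 31.01 CPM in WT, 20.9, 32.4 and 28.95 CPM in Per1KO, and 16.5, 30.4 and 32.9 CPM in Per2KO, and Per2 at 9.75, 11.5 and 20.5 CPM in WT, 6.59, 9.44 and 10.6 CPM in Per1KO, and 3.504, 9.13 and 8.38 CPM in Per2KO, on days 0, 3 and 5 in that order. The libraries are therefore called by their labels. The 6 myoblast markers summed to 8299 to 11640 CPM in the 9 libraries, of which Vim alone held 3296 to 8129 CPM. Of 10 markers of other cell types, 2 were at 0 in every library and 8 did not pass the filter on low counts. The other 2 were Cd68 and Tubb3. The 10 summed to 41.1 to 198.3 CPM, of which Tubb3 alone held 38.9 to 197 CPM.

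**Figure D1:**
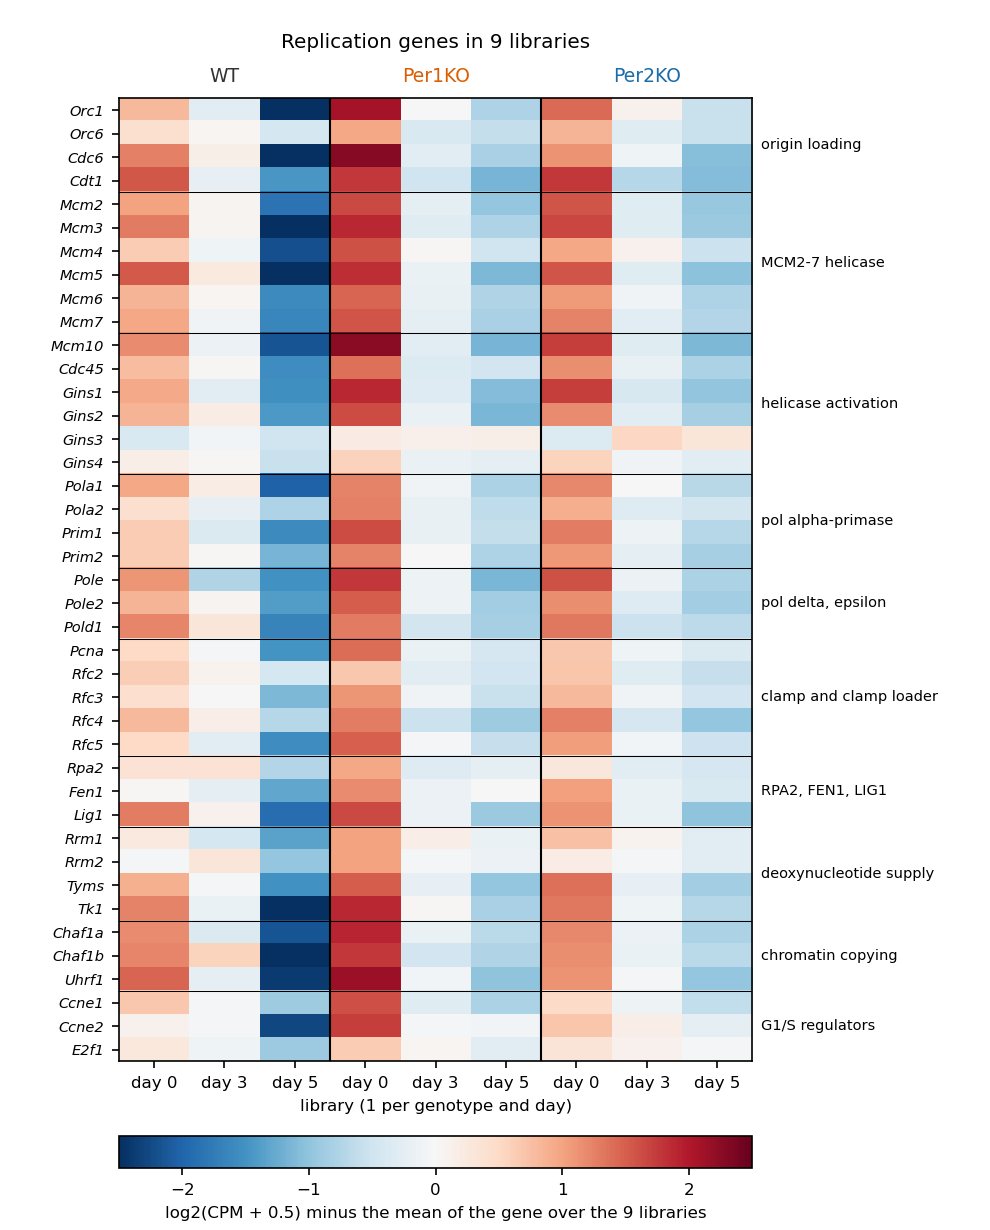
Heat map of the 41 replication genes (rows, grouped by role) in the 9 libraries (columns); colour is log2(CPM + 0.5) minus the mean of the gene over the libraries and saturates at 2.5 either way. Day 0 is the darkest red column of each genotype for nearly all genes, WT on day 5 is the darkest blue, and Gins3 stays near its mean.

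Replication genes fell together as the cells differentiated. In the additive fit over all 9 libraries (edgeR's quasi-likelihood test, Benjamini-Hochberg adjustment over the 13324 genes tested, called at an adjusted p under 0.05), 36 of the 41 were lower on day 3 than on day 0 and none was higher, where 16.9% of all tested genes were lower. By day 5, 40 of the 41 were lower than on day 0, against 22.9% of all tested genes. The median log2 fold change of the 41 was -1.40 on day 3 and -2.16 on day 5, where the medians of all tested genes were -0.01 both times. In 40 of the 41 every day 5 library lay below every day 0 library, which held for 22.6% of tested genes, and in 37 every day 3 library lay below every day 0 library (18.8% of tested genes). Every day 5 library lay below every day 3 library in 36 (10.4% of tested genes), the exceptions being Gins3, Rpa2, Fen1, Rrm1 and E2f1. The day 3 count of 36 was 23 without Per1KO on day 3 or without Per2KO on day 3, and the 2 fits without a knockout genotype gave 9 (without Per1KO) and 19 (without Per2KO). Fewer cells in S phase and less of these mRNAs per cell cannot be told apart in bulk RNA.

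**Figure D2:**
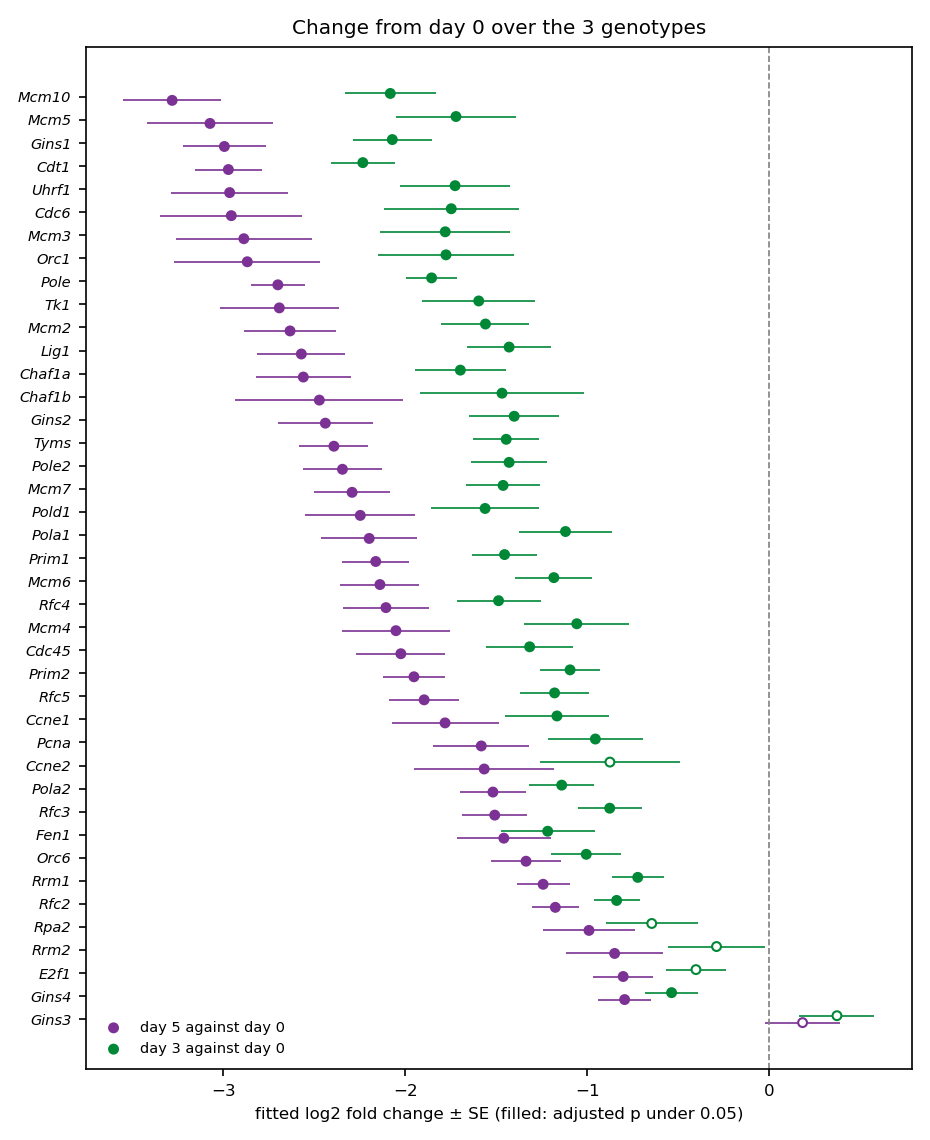
Fitted log2 fold change of each of the 41 genes on day 3 (green) and day 5 (purple) against day 0, with its standard error; filled circles have an adjusted p under 0.05. The falls range from -3.28 for Mcm10 on day 5 to -0.80 for Gins4 and E2f1 on the same day, and Gins3 lies to the right of 0 on both days.

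Loading of origins takes ORC1, the large regulated subunit of the origin recognition complex, its small subunit ORC6, and the loaders CDC6 and CDT1. All 4 genes were lower on both days. On days 0, 3 and 5 Cdt1 was at 49.3, 14.2 and 5.72 CPM in WT, 57.1, 11.6 and 7.09 CPM in Per1KO, and 57.3, 9.89 and 7.53 CPM in Per2KO. The day groups did not overlap, and the fitted log2 fold change of day 5 against day 0, which is the change given for each gene from here on, was -2.97 ± 0.18 (SE, adjusted p = 2.17e-05). Cdc6 followed with 18.8, 8.39 and 0.8796 CPM in WT, 38.4, 6.23 and 4.06 CPM in Per1KO, and 16.95, 6.96 and 3.36 CPM in Per2KO. Its highest library by far was Per1KO on day 0, its lowest WT on day 5 with a count of 4, and it changed by -2.96 ± 0.39 (SE, adjusted p = 0.00072). Orc1 was rare, with 5.51, 2.37 and 0 CPM in WT, 14.1, 2.898 and 1.51 CPM in Per1KO, and 8.72, 3.19 and 1.83 CPM in Per2KO. WT on day 5 had a count of 0, which allows up to 0.660 CPM, while both knockouts stayed above that level. Orc6, the most abundant of the 4 by CPM, fell less, from 31.2 to 46.2 CPM on day 0 to 15.3 to 17.2 CPM on day 5, a change of -1.34 ± 0.19 (SE, adjusted p = 0.00105).

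The 6 subunits of the MCM2-7 ring, the motor that unwinds DNA at the fork, were all lower on day 3 and on day 5, with a median of -2.46 on day 5. Mcm5 led, with 112, 45.3 and 5.94 CPM in WT, 138, 34.1 and 17.1 CPM in Per1KO, and 114, 30.98 and 18.4 CPM in Per2KO. Every day 5 library was below every day 3 library, every day 0 library was above both, and the change was -3.07 ± 0.35 (SE, adjusted p = 0.000377). Mcm6, the subunit with the highest mean CPM, was at 182, 105 and 33.2 CPM in WT, 276, 88.8 and 59.5 CPM in Per1KO, and 210.1, 94.3 and 58.6 CPM in Per2KO. It also had no overlap between days, and changed by -2.14 ± 0.22 (SE, adjusted p = 0.000183). Mcm4 changed the least of the 6, -2.05 ± 0.30 (SE, adjusted p = 0.00114), with levels of 87.7, 52.7 and 11.9 CPM in WT, 172, 57.9 and 39.97 CPM in Per1KO, and 111, 60.5 and 39.02 CPM in Per2KO. In all 6 subunits WT on day 5 was the lowest library, and both knockouts of that day lay above it.

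Of the genes that switch the helicase on, 5 of 6 fell. Mcm10, whose product joins the active helicase to polymerase alpha, had the deepest fall of the 41, -3.28 ± 0.27 (SE, adjusted p = 6.78e-05) on day 5, with 22.5, 8.58 and 1.76 CPM in WT, 47.7, 7.97 and 3.99 CPM in Per1KO, and 32.8, 7.74 and 4.17 CPM in Per2KO. Cdc45, the partner of MCM2-7 and GINS in the moving helicase, was at 29.4, 17.5 and 5.498 CPM in WT, 45.1, 13.3 and 12.01 CPM in Per1KO, and 39, 14.9 and 9.62 CPM in Per2KO, and changed by -2.03 ± 0.25 (SE, adjusted p = 0.000453). The 4 GINS subunits, which form 1 complex in equal parts, did not move alike. Gins1 changed by -3.00 ± 0.23 (SE, adjusted p = 5.05e-05) and Gins2 by -2.44 ± 0.26 (SE, adjusted p = 0.000235), while Gins4 changed by -0.80 ± 0.15 (SE, adjusted p = 0.00326). Gins3 did not fall, with 10.7, 13.5 and 9.896 CPM in WT, 16.3, 15.6 and 15.7 CPM in Per1KO, and 11.1, 20.4 and 17.7 CPM in Per2KO, and a change of 0.18 ± 0.21 (SE, adjusted p = 0.495). Its day groups overlapped: Per2KO was higher on days 3 and 5 than on day 0, Per1KO stayed between 15.6 and 16.3 CPM, and WT on day 5 was slightly below WT on day 0. Gins3 shared 0.683% of its 31-base words with other genes and overlapped no other exon, so neither its reads nor its locus were of the doubtful kind described at the end.

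Polymerase alpha-primase lays down the first primer and the first bases of each fragment, and all 4 of its genes were lower on both days. Pola1, the catalytic subunit, was at 52.3, 30.3 and 6.16 CPM in WT, 63.1, 24.7 and 14.99 CPM in Per1KO, and 61.2, 26.5 and 16.2 CPM in Per2KO, and changed by -2.20 ± 0.26 (SE, adjusted p = 0.00044) on day 5. Prim1, the catalytic primase, changed by -2.16 ± 0.18 (SE, adjusted p = 8.16e-05), with 35.03, 17.3 and 7.04 CPM in WT, 69.9, 19.5 and 14.6 CPM in Per1KO, and 54.9, 20.4 and 13.4 CPM in Per2KO. Pola2 fell the least, -1.52 ± 0.18 (SE, adjusted p = 0.000442). On day 0 both knockouts lay above WT in these 3 genes. Polymerase epsilon copies the leading strand, and its catalytic gene Pole was at 41.7, 11.1 and 6.38 CPM in WT, 65.8, 17.4 and 8.34 CPM in Per1KO, and 58.3, 17.3 and 10.9 CPM in Per2KO. It had the smallest adjusted p of the 41 on day 5, with a change of -2.70 ± 0.15 (SE, adjusted p = 1.31e-05), and it alone passed the test between day 5 and day 3, at -0.85 ± 0.15 (SE, adjusted p = 0.0324), where 1.09% of all tested genes were lower. That call rested on most libraries: no gene was called without WT on day 5, without Per1KO on day 0, 3 or 5, or without Per2KO on day 3 or 5, while 8 were called without WT on day 0 and 2 without WT on day 3. At an unadjusted p under 0.05, 30 of the 41 were lower on day 5 than on day 3, where 7.74% of tested genes were, and DESeq2 called 23. Pole2, its second subunit, and Pold1, the catalytic subunit of polymerase delta, changed by -2.35 ± 0.22 (SE, adjusted p = 0.000122) and -2.25 ± 0.30 (SE, adjusted p = 0.000759) on day 5 against day 0.

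PCNA is the ring that holds polymerases to DNA, and the RFC proteins load it. All 5 genes of this group fell on both days, with a median of -1.58 on day 5, less than in the MCM ring. Pcna was at 109, 75.2 and 26.8 CPM in WT, 201, 68.5 and 57.4 CPM in Per1KO, and 123, 71.4 and 59.8 CPM in Per2KO. The highest library was Per1KO on day 0 and the lowest WT on day 5, and the change was -1.58 ± 0.27 (SE, adjusted p = 0.00221). Rfc4 fell the most of the loader genes, -2.11 ± 0.24 (SE, adjusted p = 0.000316), and Rfc2, whose range on day 5 was 24.6 to 27.1 CPM, the least, -1.18 ± 0.13 (SE, adjusted p = 0.000271). Of the genes for single-strand binding and fragment joining, Lig1, the ligase of Okazaki fragments, was at 79.9, 35.6 and 8.36 CPM in WT, 104, 29.8 and 17.1 CPM in Per1KO, and 72.3, 29.2 and 16.1 CPM in Per2KO, and changed by -2.57 ± 0.24 (SE, adjusted p = 0.000128). Rpa2, a subunit of the protein that coats single strands, changed by -0.99 ± 0.25 (SE, adjusted p = 0.0137) on day 5 and did not pass the test on day 3, at -0.65 ± 0.25 (SE, adjusted p = 0.0814). In WT it held 25.8 and 25.9 CPM on days 0 and 3, while both knockouts were lower on day 3. Fen1, the flap nuclease, was counted at only 2.97, 2.37 and 0.8796 CPM in WT, 7.26, 2.57 and 2.86 CPM in Per1KO, and 6.44, 2.55 and 2.12 CPM in Per2KO, and most of its exons overlap other genes.

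Genes of deoxynucleotide supply fell by unlike amounts. Ribonucleotide reductase makes deoxynucleotides and is built from RRM1 and RRM2. Rrm2 had the highest level per kilobase of exon of the 41 on day 0, 85.7 to 179.7 CPM per kb, and by CPM was at 237, 305 and 126 CPM in WT, 498, 242 and 222 CPM in Per1KO, and 281, 239 and 204 CPM in Per2KO. WT was higher on day 3 than on day 0 while both knockouts were lower, and the day 3 and day 0 libraries overlapped. The fitted values were -0.29 ± 0.27 (SE, adjusted p = 0.432) on day 3, which did not pass, and -0.85 ± 0.27 (SE, adjusted p = 0.0327) on day 5. Rrm1 was at 178, 111 and 58.9 CPM in WT, 299.7, 168 and 134 CPM in Per1KO, and 249, 159 and 123 CPM in Per2KO, and changed by -1.24 ± 0.15 (SE, adjusted p = 0.000387) on day 5. Both knockouts lay above WT on every day. Tyms, thymidylate synthase, changed by -2.39 ± 0.19 (SE, adjusted p = 5.92e-05), with 50.4, 26.6 and 9.24 CPM in WT, 78.4, 23.3 and 13.7 CPM in Per1KO, and 71.5, 23.4 and 14.6 CPM in Per2KO. Tk1, thymidine kinase of the salvage route, changed by -2.69 ± 0.33 (SE, adjusted p = 0.000505), and its lowest library, WT on day 5, held 3.96 CPM.

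Chromatin is copied with the DNA. Chaf1a and Chaf1b encode subunits of the chaperone that places new histones behind the fork, and Uhrf1 encodes the reader that brings DNA methyltransferase to new strands. Uhrf1 was at 124, 37.95 and 8.14 CPM in WT, 200.1, 43.2 and 22.1 CPM in Per1KO, and 99.1, 44.1 and 22.9 CPM in Per2KO, with no overlap between days, and changed by -2.97 ± 0.32 (SE, adjusted p = 0.000277). Chaf1a changed by -2.56 ± 0.26 (SE, adjusted p = 0.000187), with 55.6, 18.8 and 5.06 CPM in WT, 92.5, 21.5 and 14.9 CPM in Per1KO, and 56.1, 21.9 and 13.7 CPM in Per2KO. Chaf1b changed by -2.47 ± 0.46 (SE, adjusted p = 0.00385), and its larger error went with WT, which held 16.4 CPM on day 3 and 1.32 CPM, a count of 6, on day 5.

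The regulators of the G1/S step had a median of -1.57 on day 5. Ccne1 and Ccne2 encode the E cyclins that activate CDK2 at S phase entry. Ccne1 was at 24.3, 14.6 and 7.92 CPM in WT, 47.2, 12.01 and 8.48 CPM in Per1KO, and 21.02, 13.7 and 9.57 CPM in Per2KO, and changed by -1.78 ± 0.29 (SE, adjusted p = 0.002) on day 5. Ccne2 was at 15.8, 14.2 and 2.64 CPM in WT, 49.8, 14.3 and 14.1 CPM in Per1KO, and 24.2, 16.6 and 12.3 CPM in Per2KO. It did not pass the test on day 3, -0.88 ± 0.38 (SE, adjusted p = 0.115), and was lower on day 5, -1.57 ± 0.39 (SE, adjusted p = 0.0127). WT kept 14.2 of 15.8 CPM on day 3 and held 2.64 CPM on day 5, while Per1KO held 14.3 and 14.1 CPM on those days. E2f1, an activating E2F, was at 45.3, 34.7 and 19.8 CPM in WT, 58.4, 38.9 and 30.8 CPM in Per1KO, and 46.97, 40.6 and 36.1 CPM in Per2KO. It was at -0.40 ± 0.16 (SE, adjusted p = 0.0929) on day 3, which did not pass, and fell by day 5, at -0.80 ± 0.17 (SE, adjusted p = 0.00571).

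**Figure D3:**
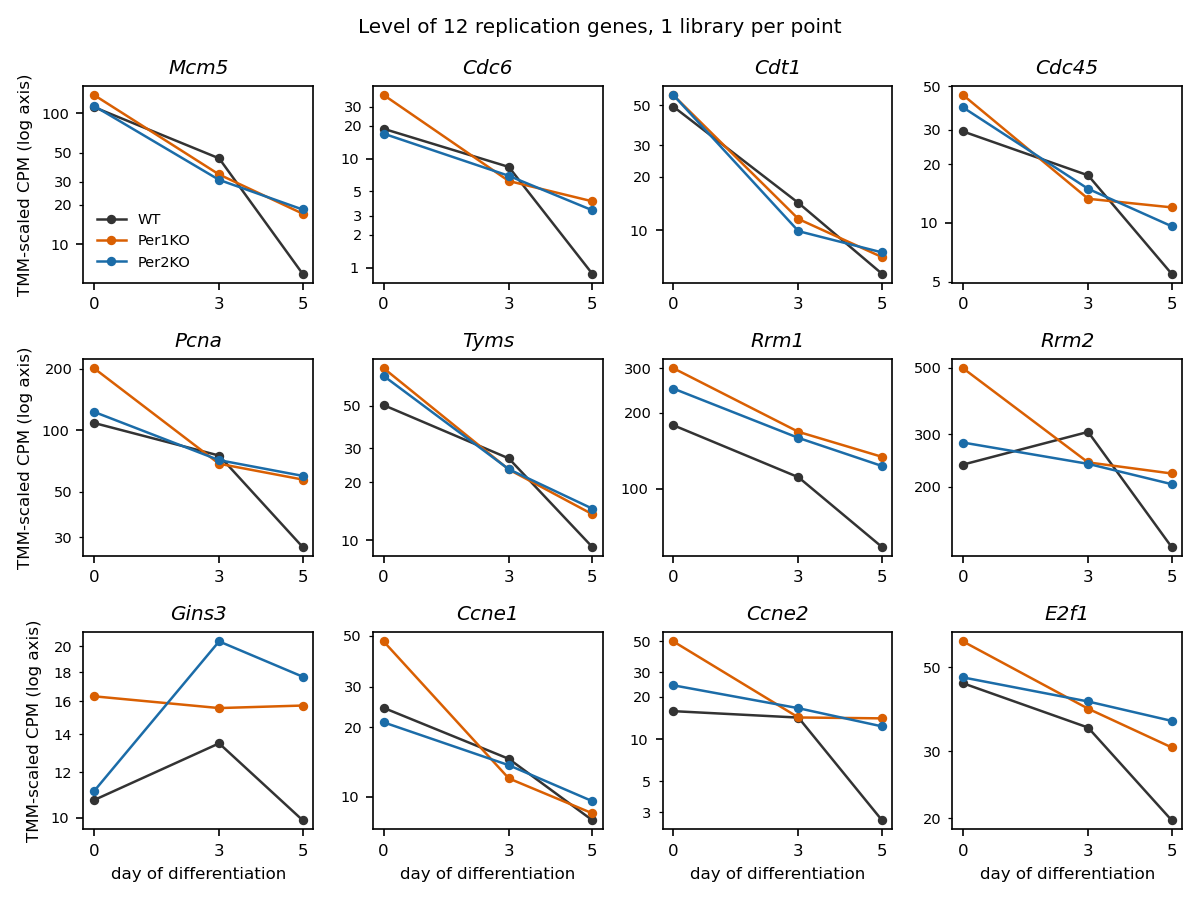
Level of 12 of the 41 genes by day in TMM-scaled CPM on a log axis, with 1 library per point and 1 line per genotype. In Mcm5, Cdc6, Cdc45, Pcna, Tyms, Rrm2 and Ccne2 the WT line lies above or near the knockout lines on day 3 and below both on day 5, and in Rrm1 it lies below both on all 3 days.

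The median course differed between the single libraries of the 3 genotypes. On day 3 the median gene kept 58.2% of its day 0 level in WT, 28.8% in Per1KO and 39.6% in Per2KO. By day 5 the medians were 18.3%, 20.9% and 25.2%. In fold terms the median fall from day 0 to day 3 was 1.72-fold in WT, 3.47-fold in Per1KO and 2.49-fold in Per2KO, and from day 3 to day 5 it was 2.87-fold in WT, 1.44-fold in Per1KO and 1.5-fold in Per2KO. The log2 difference between day 5 and day 3 was lower in WT than in both knockouts for 40 of the 41 genes, all but Pole, where this held for 45.7% of tested genes. These are differences between single libraries and have no replicate check. The test that bears on them, an interaction of genotype with day 5 against day 3 (both knockouts against WT, 2 residual degrees of freedom, chosen after the data had been seen), called 0 of the 41 with edgeR's quasi-likelihood test. At an unadjusted p under 0.05 it gave 24 of the 41, all with the smaller fall in the knockouts, where 11.4% of tested genes did so in that direction, and 0.00% of tested genes were called. DESeq2 called 13. All 6 MCM2-7 genes were among the 24: Mcm3 had an interaction of 2.20 ± 0.21 (SE, adjusted p = 0.0654), Mcm5 of 2.06 ± 0.28 (SE, adjusted p = 0.0764) and Mcm2 of 1.26 ± 0.16 (SE, adjusted p = 0.0709). Pole was at -0.05 ± 0.40 (SE, adjusted p = 0.958). The count of 0 became 23 without Per1KO on day 0 or without Per2KO on day 0, 4 without Per1KO on day 5 and 3 without Per2KO on day 5. It stayed at 0 without Per1KO on day 3 or without Per2KO on day 3. Each such refit has fewer residual degrees of freedom than the 2 of the full fit. The share of all tested genes called in these refits or by DESeq2 is not given here, so their counts have no background beside them.

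**Figure D4:**
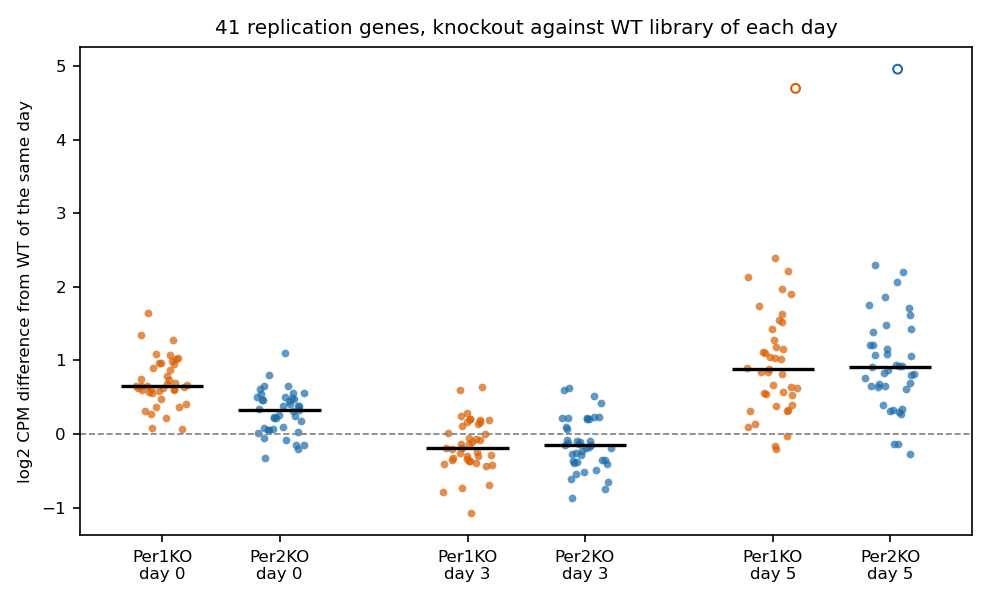
Difference in log2 CPM (prior count 2) between each knockout library and the WT library of the same day, 1 point per gene, with the median of the 41 genes as a bar; open circles are Orc1 on day 5, where WT had a count of 0 and the value is no estimate. From day 0 to 3 to 5 the medians go from 0.66 to -0.19 to 0.89 in Per1KO and from 0.33 to -0.15 to 0.92 in Per2KO.

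Against the WT library of the same day, the median replication gene was higher in both knockouts on days 0 and 5 and lower on day 3. On day 0 the median difference was 0.66 log2 in Per1KO, with all 41 genes above WT, and 0.33 in Per2KO, with 35 above, where the medians of all tested genes were -0.03 and -0.02. On day 3 it was -0.19 and -0.15, with 14 and 13 genes above WT. On day 5 it was 0.89 and 0.92, with 38 above in each knockout, and 19 and 17 genes were at least 2-fold higher, where 9.52% and 9.73% of tested genes were. The lowest on day 5 was Rfc4, at -0.20 and -0.28. In 19 of the 41, both knockouts lay above WT on days 0 and 5 and below it on day 3, which 5.57% of tested genes did. Another 12 lay above WT on all 3 days in both knockouts, against 19.9% of tested genes: Orc1, Mcm4, Gins3, Prim1, Pole, Rfc5, Fen1, Rrm1, Tk1, Chaf1a, Ccne2 and E2f1. The summed level of myotube markers was lower in both knockouts than in WT on all 3 days. Over 10 genes it was 903.7 CPM in WT on day 0 against 120.3 CPM in Per1KO and 77.8 CPM in Per2KO, 22310 CPM against 10250 and 9379 CPM on day 3, and 23880 CPM against 17590 and 14200 CPM by day 5. Single markers did not all follow the sum. All 10 were lower in both knockouts on day 0, but on day 3 Ttn was higher than in WT in both. On day 5, 3 of the 10 were higher in Per1KO and 2 in Per2KO, Ttn among them. The part that the state of differentiation had in the differences of the replication genes was not tested.

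Fitted over the 3 days, few genes differed between genotypes. In Per1KO 4 of the 41 were higher than in WT and 0 lower, where 9.26% of tested genes were higher and 10.1% lower. The share of higher genes was thus close to the background. The 4 were Rrm1, at 0.83 ± 0.15 (SE, adjusted p = 0.00689), Prim1, at 0.72 ± 0.19 (SE, adjusted p = 0.0328), Pole, at 0.57 ± 0.15 (SE, adjusted p = 0.0322), and Rfc5, at 0.74 ± 0.20 (SE, adjusted p = 0.0368). In Per2KO 2 were higher and 0 lower, where 9.31% of tested genes were higher and 10.6% lower. The 2 were Rrm1, at 0.68 ± 0.15 (SE, adjusted p = 0.0156), and Pole, at 0.63 ± 0.15 (SE, adjusted p = 0.0226). The median fold change was 0.38 log2 in Per1KO and 0.30 in Per2KO, with 37 and 36 of the 41 above 0, where the medians of all tested genes were -0.02 and -0.01. Larger differences with larger errors did not pass: Ccne2 was at 1.18 ± 0.41 (SE, adjusted p = 0.0818) and Mcm4 at 0.86 ± 0.30 (SE, adjusted p = 0.0802) in Per1KO. Without WT on day 3 the counts were 16 and 7. With only the 6 libraries of the 2 genotypes compared, 1 gene was called in Per1KO (Rrm1) and 0 in Per2KO, where 4 had an unadjusted p under 0.05 and DESeq2 on all 9 libraries called 4. Leaving out other single libraries gave 1 to 3 calls in Per1KO, with 1 without WT on day 0, WT on day 5, Per1KO on day 0 or Per2KO on day 3 and 2 without Per1KO on day 5 or Per2KO on day 0. It gave 0 to 3 calls in Per2KO, with 0 without Per2KO on day 3 or day 5 and 1 without WT on day 5.

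The interaction that compares the knockout difference after day 0 with that on day 0 called none of the 41 (3 residual degrees of freedom, 2 by DESeq2), where 4.95% of tested genes were called. At an unadjusted p under 0.05 it gave 3 of the 41, where 12.8% of tested genes were higher and 10.7% lower. The nearest to a call were Orc6, at -0.79 ± 0.21 (SE, adjusted p = 0.0768), and Rfc4, at -0.97 ± 0.26 (SE, adjusted p = 0.0777). Its median of -0.32 log2 became 0.39 without WT on day 3, with 3 genes called, and -0.66 without WT on day 5, with 6 called. Its sign over these genes therefore rested on which of the 2 later WT libraries was in the fit.

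Per1KO and Per2KO could not be told apart by the fit, which called 0 of the 41 (0 at an unadjusted p under 0.05, also 0 by DESeq2), where 0.00% of all tested genes were called. At an unadjusted p under 0.05 only 0.405% of tested genes were higher in Per1KO and 0.255% lower. With so few genes passing, a count of 0 does not show that the knockouts are alike. As single libraries the 2 knockouts stood apart most on day 0, when 38 of the 41 were higher in Per1KO, by a median of 0.35 log2, and 4 by at least 2-fold, against 1.07% of tested genes. Those 4 were Cdc6, Ccne1, Ccne2 and Uhrf1, with differences of 1.18, 1.16, 1.04 and 1.01 log2. On days 3 and 5 the medians were 0.00 and -0.05, and none of the 41 differed by 2-fold. Few genes of any kind did: 0.188% of tested genes were at least 2-fold higher in Per1KO and 0.113% lower on day 3. The shares on day 5 were 0.270% and 0.443%. With 1 library each, the day 0 difference has no replicate check.

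Further replication genes, fixed as a list beside the 41, were mostly lower with time as well. Of 46 further replication genes, 36 were lower and 1 higher on day 3, and 37 lower and 1 higher on day 5. Of all tested genes 16.9% were lower and 18.1% higher on day 3, and 22.9% and 23.2% on day 5. Recql4, a helicase of origin firing, changed the most, -3.51 ± 0.27 (SE, adjusted p = 4.74e-05), and Rrm2b, the reductase subunit that supplies resting cells and DNA repair, was the one that rose, 0.75 ± 0.13 (SE, adjusted p = 0.00264). In Per1KO 6 of the 46 were higher than in WT and 1 lower, where 9.26% of tested genes were higher and 10.1% lower. Per2KO also gave 6 and 1, where 9.31% and 10.6% of tested genes were. Of 12 E2F and pocket protein genes, 4 were higher and 6 lower on day 5, where 23.2% and 22.9% of tested genes were. They were led by Rb1, the restraint on E2F, at 1.41 ± 0.22 (SE, adjusted p = 0.00145), and E2f7, a repressing E2F, at -2.63 ± 0.25 (SE, adjusted p = 0.000145). Among 18 cyclins, kinases and inhibitors, of which 15 were tested, 3 were higher and 10 lower on day 5. Against the same shares of tested genes, the higher ones were near the background. Cdkn1a, the p21 inhibitor of CDKs, rose by 2.49 ± 0.18 (SE, adjusted p = 3.67e-05), and was lower than WT in both knockouts, at -0.71 ± 0.17 (SE, adjusted p = 0.0243) and -0.78 ± 0.17 (SE, adjusted p = 0.0156).

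Mitosis genes, the other side of the proliferating state, gave a contrast in timing that was not the same in each genotype. From day 3 to day 5 their median change was -1.38 log2 in WT, -1.41 in Per1KO and -1.43 in Per2KO. In the replication genes it was -1.52, -0.52 and -0.59 in that order. From day 0 to day 3 it was -1.875, -1.78 and -1.30 in the mitosis genes and -0.78, -1.80 and -1.32 in the replication genes. In the fit all 12 mitosis genes passed as lower in each of the 3 comparisons of days. Their medians were -1.57 (day 3 against day 0), -2.95 (day 5 against day 0) and -1.35 (day 5 against day 3). Of all tested genes 16.9%, 22.9% and 1.09% were lower in these. Only Pole of the 41 replication genes passed the last of these, although the median of the 41 there was -0.83. That count depended on the fit: it was 16 without the WT libraries, 0 without Per1KO or without Per2KO, and 23 by DESeq2 on all 9 libraries. On day 3 the knockouts were above WT by a median of 0.61 and 0.66 log2 in the mitosis genes, beside -0.19 and -0.15 in the replication genes. The median interaction of day 5 against day 3 was -0.02 in the mitosis genes and 1.04 in the replication genes. In the fit over days 6 of the 12 were higher in Per1KO and 5 in Per2KO, where 9.26% and 9.31% of tested genes were. The difference between the lists was not tested. None of the 11 mitosis genes with a promoter window held the E2F letters, and 9 of 37 further replication genes (24.3%) did.

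Reads of 6 of the 41 genes may be shared with other genes, since at least 25% of their 31-base words occur elsewhere in the transcripts or at least 25% of their exonic bases lie under another gene. Fen1 had 84.2% of its exonic bases under the antisense gene Gm10143 and Tmem258, Gins2 67.3% under Gse1, and Chaf1a 52.5% under Ubxn6. Mcm7 shared 47.7% of its words with other genes, Pcna 38.0% with the pseudogene Pcna-ps2, and Uhrf1 29.4% with other genes. Among the other 35 genes, 34 were lower on day 5 and 30 on day 3, with medians of -2.14 and -1.32, and 4 and 2 were higher in Per1KO and Per2KO.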

How the data were processed

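Polyadenylated RNA was read from 1 end on an Illumina HiSeq, per the labels' protocols. Per the submitters' processing notes, the tools named are CASAVA 1.8 and HISAT2 2.1.0 and the build is mm10; the counter and annotation are not given in the sources used here. The authors deposited 1 table of raw read counts for 47729 Ensembl genes in 9 libraries, of which 47224 matched a symbol; the other 505 held at most 0.0328% of any library. Counts were scaled by TMM and tested with edgeR 4.0.16 (limma 3.58.1, R 4.3.3): the quasi-likelihood test with robust dispersion, an additive model of genotype and day over all 9 libraries, and Benjamini-Hochberg adjustment over the 13324 genes that reached 1 CPM in 3 or more libraries, at 0.05. Single libraries were compared in log2 CPM (prior count 2), with no test. A count of 0 allows 3 counts. Limits from counts cover counting error only, as reads carry no molecular identifiers. DESeq2 1.42.0, other scalings, filters, depths thinned to WT, and leaving out libraries were alternatives. Genes described in full were the pathway's main regulators and, in each role, the most abundant gene and those with the largest fitted changes. The members and lists were chosen with earlier results of these data known. Gene positions, shared 31-base words and overlaps are from GENCODE M21 (GRCm38, the same assembly as mm10). The table has 0 further columns of samples.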

Additional observations from a re-analysis of the deposited data

Results flagged for a closer look

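In 2 of the 41 genes both knockouts differed between days in the direction opposite to WT, although for Rpa2 the WT value was near 0. Between day 0 and day 3 Rrm2 differed by 0.36 log2 CPM in WT, and by -1.04 in Per1KO and -0.24 in Per2KO. Over the same days Rpa2 differed by 0.00 (0.003) in WT, and by -1.31 in Per1KO and -0.57 in Per2KO. In Gins3, and from day 3 to day 5 in Fen1 and Rpa2, the signs also differed between genotypes, but the knockouts did not share a sign. These differences between genotypes were not tested, since each is a pair of single libraries.

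The median difference of the 41 genes from WT had opposite signs on different days. It was 0.66 on day 0, -0.19 on day 3 and 0.89 on day 5 in Per1KO, and 0.33, -0.15 and 0.92 in Per2KO (log2 CPM). Both knockouts share the WT library of each day, so they are not independent. No test was made of the change in sign of the median itself.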

How the results depend on the processing

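Over all settings that left out a library or genotype, 34 to 40 of the 41 genes were called lower on day 5 than on day 0 (39 to 40 at an unadjusted p under 0.05) and 9 to 40 on day 3 (30 to 40). For day 5 against day 3 the same range of calls was 0 to 16. In the comparisons of genotypes a library or a whole day was left out. The range there was 0 to 16 for Per1KO against WT, with the 0 without day 5, 0 to 7 for Per2KO against WT and 0 to 0 for Per1KO against Per2KO. In the interactions only single libraries were left out. The range was 0 to 6 for the planned interaction and 0 to 23 for the interaction of day 5 against day 3. DESeq2 called 8 genes in Per1KO, 4 in Per2KO, 23 on day 5 against day 3, 2 in the planned interaction and 13 in the added one. With no filter beyond 1 count the calls were 4 in Per2KO, 8 on day 5 against day 3 and 9 in the added interaction. Thinning the knockout libraries gave 3 on day 5 against day 3 and 5 in the added interaction; total counts gave 3, and only the libraries compared gave 1 in Per1KO, 0 in Per2KO and 2 on day 5 against day 3. The cause was not tested.

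Total counts moved the median of all genes by -0.12 on day 3 and -0.17 on day 5. They put the median differences of the 41 genes from WT at 0.69 (day 0), -0.11 (day 3) and 0.98 (day 5) in Per1KO, and 0.38, -0.071 and 1.02 in Per2KO, and at 0.34 on day 0 and -0.074 on day 5 for Per1KO against Per2KO. RLE size factors put this last on day 0 at 0.36. Thinning gave -0.14 for Per1KO on day 3, 0.82 for Per2KO on day 5, and for Per1KO against Per2KO -0.02 on day 3 and 0.016 on day 5, both opposite in sign to their values at full depth of 0.002 and -0.05. Single genes were refitted for days 3 and 5 against day 0 and for each knockout against WT, in the genes described in full, and no fold change that passed the test reversed there. Single genes were not refitted for day 5 against day 3 or for the interactions.

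The planned interaction without WT on day 0, and the added one without any WT library, could not be fitted. The additive model already compares days within genotypes and genotypes within days. Beyond it, no paired analysis was possible because each group has 1 library and so no replicate number to pair. WT depth limits what low genes can show: Orc1 had a count of 0 in WT on day 5. Among others, Cdc6 and Fen1 had counts of 4 there, Chaf1b of 6, Gins1 of 7 and Mcm10 of 8.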
